A study of Homo sapiens with 18 samples.

Results

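Transcript levels of 10 genes that silence retroelements and methylate DNA were measured in libraries labelled as HCC1937 breast cancer cells with an empty vector or with added BRCA1, before and during treatment with the PARP inhibitor olaparib. The genes are SETDB1, TRIM28, MPHOSPH8, TASOR, MORC2, DNMT1, DNMT3A, DNMT3B, EZH2 and KDM1A. They were chosen by name, as the rows whose Ensembl identifier without its version maps to these symbols. They are 10 of 35044 genes in the count table, and all 10 were among the 18335 genes that passed the filter on low counts. Across the 10 genes, the cell lines differed more than the treated and untreated cells of 1 line: SETDB1 was 1.9-fold lower and TRIM28 1.82-fold higher in untreated HCC1937-OE-BRCA1, whereas 1 of 40 comparisons of a treated with an untreated group passed the test, a fall of EZH2 in HCC1937-EV after 24 h. Of all genes tested, 72.7% passed between the untreated lines and 0.0436% to 13.7% in the comparisons with olaparib, so the contrast was not particular to the 10. The median absolute log2 fold change between the untreated lines was 0.44 for the 10 and 0.963 over all genes. Some epithelial markers in the libraries labelled HCC1937-EV went against that label, as given below.

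RNA-seq was performed on 18 libraries in 6 conditions of 3. HCC1937 is a human cell line from a breast tumor with mutated BRCA1. HCC1937-EV is, by its label, this line with an empty vector. HCC1937-OE-BRCA1 is, by its label, the same line with wild type BRCA1 overexpressed. Each was collected at 0 h and after 12 h and 24 h with olaparib, which blocks the repair enzymes PARP1 and PARP2. In the labels the 0 h libraries also carry the treatment olaparib, and HCC1937-EV has the genotype WT, whereas the study's text describes 0 h as untreated and the line as BRCA1 mutated. Groups were taken from the line and time in each sample title. Nothing in the labels says that replicates came from separate cultures, so p-values measure the spread between these libraries, which may be technical. Total counts per library lay between 15081973 and 17571922.

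The added gene was examined first. BRCA1 was at 126, 111 and 117 CPM (counts scaled to a common library total, with TMM library sizes) in the 0 h libraries of HCC1937-EV and at 166, 122 and 127 in those of HCC1937-OE-BRCA1. These groups overlapped, and the log2 fold change of 0.24 ± 0.112 (SE) did not pass (adjusted p = 0.0654, edgeR quasi-likelihood fit, Benjamini-Hochberg method). After 24 h BRCA1 was at 90.9, 93.1 and 99.5 against 155, 159 and 169 CPM, without overlap, a log2 fold change of 0.77 ± 0.113 (adjusted p = 3.17e-06). The counts do not separate the added transcript from the cell's own.

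Markers of breast epithelium went against the label of one line. In the 9 libraries labelled HCC1937-EV, EPCAM, an epithelial adhesion protein, had 1 count in all, and the medians of 4 of 8 epithelial markers (EPCAM, CDH1, KRT5 and KRT14) were under 1 CPM. In the 9 libraries of HCC1937-OE-BRCA1 none of the 8 had a median that low, and EPCAM lay between 252 and 352 CPM. KRT8 and KRT18 were present in both, with KRT8 at 1680 to 2180 CPM in HCC1937-EV and 2510 to 4390 CPM in HCC1937-OE-BRCA1. The summed level of the 8 markers was 2610 to 3310 CPM against 6640 to 10500 CPM. The 7 leukocyte, fibroblast and endothelial markers that the counts hold went both ways. COL1A1 was at 89.0 to 144 CPM over the 9 HCC1937-EV libraries against 5.85 to 11.4 CPM in HCC1937-OE-BRCA1, and PDGFRB at 6.34 to 11.3 against 0 to 0.189 CPM. PECAM1 was at 0.74 to 2.65 against 9.92 to 20.7 CPM, and PTPRC, with no count in HCC1937-EV, lay between 0.431 and 2.22 CPM in HCC1937-OE-BRCA1. The sum of the list, most of it COL1A1 in HCC1937-EV, was 99.0 to 156 against 19.7 to 33.3 CPM. Between the untreated lines 72.7% of the genes tested were called. Thus BRCA1 and the other differences between these lines cannot be told apart, every comparison between lines below, and every comparison of treated with untreated HCC1937-EV, rests on the libraries labelled HCC1937-EV.

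Most of the human genome's retroelements are kept silent by marks on chromatin. TRIM28 (also KAP1) is brought to them by zinc finger proteins and recruits SETDB1, which methylates histone H3 on lysine 9. The HUSH complex, with TASOR as its scaffold and MPHOSPH8 as the reader of that mark, works with SETDB1 and the ATPase MORC2 to silence long interspersed elements and newly integrated DNA. DNMT3A and DNMT3B set DNA methylation at cytosines followed by guanine (CpG), and DNMT1 copies it after replication. EZH2 is the catalytic subunit of Polycomb repressive complex PRC2, and KDM1A (LSD1) removes methyl groups from lysine 4 of histone H3. Silencing matters in this setting because transcripts of retroelements can form double-stranded RNA, which innate sensors detect.

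On GRCh38 by GENCODE v29, SETDB1 (ENSG00000143379.12) lies at chr1:150926263-150964744 on the plus strand, TRIM28 (ENSG00000130726.12) at chr19:58544091-58550722 on the plus strand, DNMT3A (ENSG00000119772.18) at chr2:25227855-25342590 on the minus strand and EZH2 (ENSG00000106462.12) at chr7:148807383-148884321 on the minus strand. The promoters of 3 members are shown because these genes carry the results: SETDB1 and DNMT3A, with the largest difference between lines among the members with a RefSeq promoter in each direction, and EZH2, the member that fell with olaparib. Sequences are from RefSeq on GRCh38.p14, read 5′ to 3′ on the gene's strand up to the most upstream start and outside annotated exons. Capitals mark CpG.
SETDB1 chr1:150926013-150926262 (+): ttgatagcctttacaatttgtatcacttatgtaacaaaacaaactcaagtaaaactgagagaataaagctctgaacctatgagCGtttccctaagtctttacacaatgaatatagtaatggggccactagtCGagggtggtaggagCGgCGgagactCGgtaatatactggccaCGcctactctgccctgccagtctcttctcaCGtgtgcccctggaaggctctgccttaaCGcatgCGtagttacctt
DNMT3A chr2:25342591-25342840 (-): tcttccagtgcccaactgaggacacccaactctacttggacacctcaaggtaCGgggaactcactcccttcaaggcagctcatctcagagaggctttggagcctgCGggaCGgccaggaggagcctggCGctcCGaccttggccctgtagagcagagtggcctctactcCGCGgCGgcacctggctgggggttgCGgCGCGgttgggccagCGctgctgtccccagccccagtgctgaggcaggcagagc
EZH2 chr7:148884322-148884541 (-): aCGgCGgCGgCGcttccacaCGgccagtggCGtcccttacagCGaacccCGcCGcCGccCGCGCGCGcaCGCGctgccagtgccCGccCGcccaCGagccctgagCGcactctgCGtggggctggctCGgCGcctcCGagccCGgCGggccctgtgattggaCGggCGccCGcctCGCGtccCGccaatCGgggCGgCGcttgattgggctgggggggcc
The EZH2 stretch is a dense CpG island with 35 CpG in 220 bases (GC 78.6%), DNMT3A has 12 in 250 (65.6%) and SETDB1 has 9 in 250 (46%). The median of 35116 RefSeq promoters was 11 CpG in the 250 bases before the start. Other RefSeq starts of the same genes had more, 20 CpG at the second start of SETDB1 and up to 33 among the 6 starts of DNMT3A, so the stretches shown are the CpG-poorest of these 2 genes. Of the 10 members 9 had a promoter in the table. DNMT3B had 3 CpG there, at a start that lies within the GENCODE gene, DNMT1 had 21, KDM1A 23, MPHOSPH8 26 and MORC2 31, and the upstream starts of TASOR had 37 and 38. DNA methylation was not measured, so these counts say what could be methylated and not what was.

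On the scale of CPM per kilobase of exon, which allows genes to be compared, TRIM28 was the highest and DNMT3A the lowest member in all 6 conditions. In untreated HCC1937-EV, TRIM28 was at 163 ± 5.93 (SD, n = 3), DNMT1 at 42.5 ± 2.72, EZH2 at 28.8 ± 1.82 and KDM1A at 26.8 ± 0.815. Next came TASOR at 12.3 ± 0.757 and MPHOSPH8 at 11.7 ± 1.23, then MORC2 at 9.55 ± 0.529, SETDB1 at 9.07 ± 0.428 and DNMT3B at 8.31 ± 0.864, and last DNMT3A at 1.88 ± 0.132. The SDs of neighbours overlapped between EZH2 and KDM1A, between TASOR and MPHOSPH8, and among MORC2, SETDB1 and DNMT3B. In untreated HCC1937-OE-BRCA1, SETDB1 stood ninth at 4.77 ± 0.416, below MPHOSPH8 at 8.13 ± 1.16 and DNMT3B at 7.93 ± 1.60, and MORC2 was at 13 ± 1.25 beside TASOR at 12.8 ± 2.17.

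**Figure D1:**
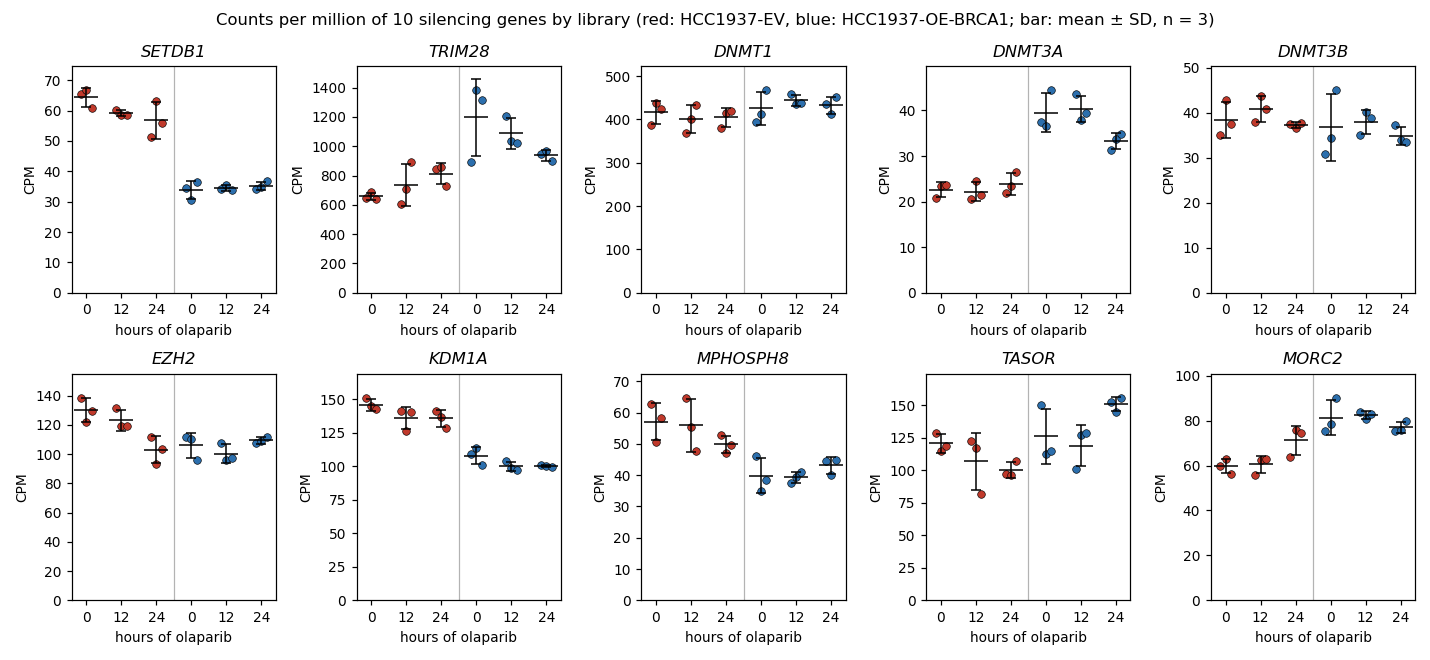
Level of each of the 10 genes in every library, in CPM on a linear axis from 0, against hours of olaparib, for HCC1937-EV (red, left of the line) and HCC1937-OE-BRCA1 (blue, right). Points are libraries and bars the mean ± SD of 3. SETDB1 sits at 51.2 to 66.8 CPM in the 9 HCC1937-EV libraries and at 30.6 to 36.7 CPM in the others, and the TRIM28 libraries of untreated HCC1937-OE-BRCA1 are spread from 894 to 1383 CPM.

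The untreated lines were compared to ask whether the silencing genes differ with the presence of wild type BRCA1. Of the 10 members 7 were called: TRIM28, DNMT3A and MORC2 were higher in HCC1937-OE-BRCA1, and SETDB1, MPHOSPH8, KDM1A and EZH2 were lower. That share is near the 72.7% of all genes called in the same comparison (39.4% higher and 33.3% lower). The median absolute log2 fold change of the 10 was 0.44, against 0.963 over all genes tested. In the same comparison 7 of 10 members had no overlap between the lines, beside 72.4% of all genes. In such bulk samples, fewer cells of a type and less RNA per cell cannot be told apart.

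SETDB1, the histone methyltransferase of the pathway, was at 65.3, 66.8 and 60.9 CPM in untreated HCC1937-EV and at 34.5, 30.6 and 36.4 CPM in untreated HCC1937-OE-BRCA1. No library of one line reached the range of the other. The log2 fold change was -0.93 ± 0.0986 (95% interval -1.13 to -0.72, adjusted p = 3.36e-08, edgeR quasi-likelihood fit, Benjamini-Hochberg method). The value at 12 h was -0.78 (adjusted p = 4.35e-07) and the value after 24 h was -0.69 (adjusted p = 2.33e-06). SETDB1 shares 948 exonic bases with CERS2 on the opposite strand, whose level also differed (150 ± 6.57 CPM in untreated HCC1937-EV against 64.6 in HCC1937-OE-BRCA1). Whether the counting used strand is not given in the sources used here, so reads of CERS2 within those bases cannot be told apart from reads of SETDB1.

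TRIM28, the adaptor that recruits SETDB1, differed the other way. It was at 649, 684 and 639 CPM in untreated HCC1937-EV and at 894, 1383 and 1313 CPM in untreated HCC1937-OE-BRCA1, so the lowest library of the second line stood apart from its replicates and still above the first. The log2 fold change was 0.86 ± 0.142 (adjusted p = 1.45e-05), and 1.04 without that lowest library (adjusted p = 1.33e-07). At 12 h it was 0.56 (adjusted p = 0.00127), and at 24 h 0.21 (interval -0.09 to 0.50, adjusted p = 0.191). TRIM28 counts were 10.2 ± 0.276 times those of SETDB1 in untreated HCC1937-EV and 35.7 ± 9.65 times in untreated HCC1937-OE-BRCA1, a ratio of counts not corrected for length.

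Among the HUSH members, MPHOSPH8 was called between the untreated lines, and TASOR was called with the GC and length offset described below but not without it. MPHOSPH8 was at 62.6, 50.7 and 58.2 CPM in untreated HCC1937-EV and at 46.2, 35.1 and 38.4 CPM in HCC1937-OE-BRCA1, without overlap (log2 fold change -0.52 ± 0.123, adjusted p = 0.00074). TASOR was at 129, 115 and 119 CPM against 151, 112 and 115 CPM, with overlap (0.06 ± 0.136, interval -0.22 to 0.34, adjusted p = 0.698), and with the offset 0.31 (adjusted p = 8.33e-05). MORC2 was at 59.9, 63.0 and 56.4 CPM against 75.2, 78.7 and 90.1 CPM, without overlap (0.44 ± 0.0957, adjusted p = 0.000301). At 24 h TASOR was called, at 97.0, 96.2 and 107 CPM in HCC1937-EV and at 153, 145 and 156 CPM in HCC1937-OE-BRCA1 (0.59 ± 0.136, adjusted p = 0.000557). MPHOSPH8 (-0.21, adjusted p = 0.131) and MORC2 (0.11, adjusted p = 0.288) were not called there. With the offset, TASOR (0.27, adjusted p = 0.000293) and MPHOSPH8 (-0.36, adjusted p = 0.000302) were called at 24 h, each in its direction at 0 h. MORC2 was not (0.08, adjusted p = 0.333). The offset does not correct a GC bias between the lines, as given below. TASOR shares 287 exonic bases with CCDC66 and MORC2 shares 1616 with its antisense gene, which had 54 counts over all libraries against 20962 for MORC2.

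The DNA methyltransferases divided by member. DNMT3A was at 20.8, 23.4 and 23.7 CPM in untreated HCC1937-EV and at 37.6, 36.6 and 44.5 CPM in untreated HCC1937-OE-BRCA1, a 1.75-fold difference without overlap (log2 fold change 0.80 ± 0.116, adjusted p = 2.67e-06, edgeR quasi-likelihood fit, Benjamini-Hochberg method). DNMT3A stayed higher after 12 h (0.86, adjusted p = 1.08e-06) and was still called after 24 h (0.48, adjusted p = 0.000917). DNMT3B was at 35.1, 42.9 and 37.4 CPM against 30.8, 34.3 and 45.0 CPM, and DNMT1 at 387, 438 and 425 CPM against 395, 413 and 468 CPM, both with overlap. Their log2 fold changes were -0.07 (interval -0.33 to 0.19, adjusted p = 0.637) and 0.03 (interval -0.16 to 0.22, adjusted p = 0.772). The ratio of DNMT3A to DNMT3B counts was 0.591 ± 0.0433 in untreated HCC1937-EV and 1.09 ± 0.117 in untreated HCC1937-OE-BRCA1.

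KDM1A and EZH2 were lower in HCC1937-OE-BRCA1. KDM1A was at 151, 145 and 142 CPM in untreated HCC1937-EV and at 109, 114 and 101 CPM in HCC1937-OE-BRCA1, without overlap (log2 fold change -0.44 ± 0.0809, adjusted p = 6.07e-05), and was called at 12 h (-0.45) and 24 h (-0.44) as well. EZH2 was at 139, 122 and 129 CPM against 112, 111 and 95.9 CPM, without overlap (-0.29 ± 0.0934, adjusted p = 0.00774). The EZH2 difference was -0.29 at 12 h (adjusted p = 0.0078) and 0.09 at 24 h (interval -0.11 to 0.28, adjusted p = 0.404).

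At 12 h the 7 members called at 0 h were called again in the same directions, where 72.9% of all genes were called and 8 of 10 members (73.5% of all genes) did not overlap. At 24 h SETDB1, KDM1A, DNMT3A and TASOR were the 4 called of 10, where 73.9% of all genes were, and 6 of 10 members (78.8% of all genes) did not overlap. Each of the 18 calls of these comparisons kept its side of the threshold when any library was left out. An offset for GC content and exon length was fitted with each line centred on its own mean. It therefore cannot correct a GC bias between the lines, and redistributes a line difference over 0, 12 and 24 h. TASOR went from 0.06, 0.15 and 0.59 to 0.31, 0.24 and 0.27, and TRIM28 from 0.86, 0.56 and 0.21 to 0.66, 0.50 and 0.46. MORC2, at 0.44, 0.45 and 0.11, came no closer together (0.52, 0.41 and 0.08). The offset raised the count from 7 to 8 at 0 h (beside 76.2% of all genes) and at 12 h (76.8%), adding TASOR both times. At 24 h it raised the count from 4 to 7, beside 78% of all genes, adding TRIM28 (0.46, adjusted p = 2.52e-06), MPHOSPH8 (-0.36, adjusted p = 0.000302) and DNMT1 (0.14, adjusted p = 0.0196). The offset was estimated from the same counts and taken as known in the test, so these p-values leave out its uncertainty. The SE of TRIM28 at 24 h was 0.141 without the offset and 0.0684 with it.

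**Figure D2:**
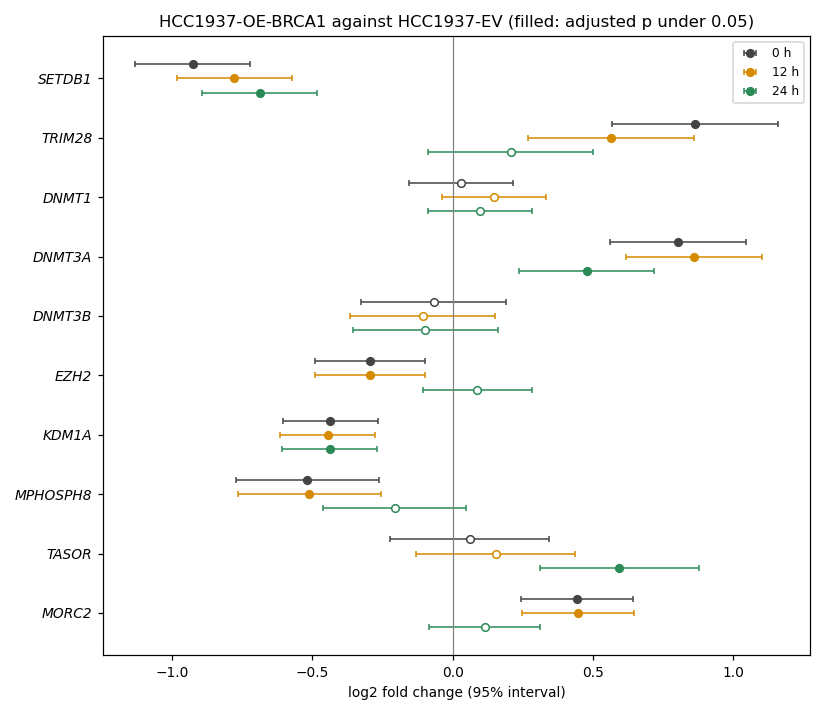
Each member's log2 fold change between the lines (HCC1937-OE-BRCA1 over HCC1937-EV) at 0, 12 and 24 h, with 95% intervals. Filled points passed an adjusted p under 0.05. SETDB1 lies at -0.93, -0.78 and -0.69, DNMT3A at 0.80, 0.86 and 0.48, and the TRIM28 points lie at 0.86, 0.56 and 0.21.

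Treated and untreated cells of each line were compared to ask whether olaparib alters the silencing genes. At 12 h no member was called in either line, in HCC1937-EV (0.0436% of all genes called) or in HCC1937-OE-BRCA1 (2.31%), and 0 of 10 members had an unadjusted p under 0.05 in either. DESeq2's Wald test also called 0 members there. Non-overlap held for 2 of 10 members at 12 h in HCC1937-EV (19.7% of all genes) and for 0 of 10 in HCC1937-OE-BRCA1 (15.1%). At 24 h 1 member was called in HCC1937-EV, where 13.7% of all genes were, and none in HCC1937-OE-BRCA1, where 8.26% were. In HCC1937-OE-BRCA1 at 24 h, 2 members had an unadjusted p under 0.05, TRIM28 and DNMT3A, and DESeq2's Wald test called 0. The median absolute log2 fold change of the 10 at 24 h was 0.189 in HCC1937-EV and 0.0936 in HCC1937-OE-BRCA1, against 0.281 and 0.233 over all genes. Counts were simulated from the mean levels of untreated HCC1937-EV, with 100 genes changed at each fold in its 24 h libraries. The same test recovered 58% of genes changed 1.5-fold and 97% of those changed 2-fold, so changes smaller than these could be missed. The changed genes were drawn at random from all but the lowest genes, so these shares are not those of the 10 members. Far fewer genes were changed there than were called in the data, which makes the adjusted threshold stricter.

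EZH2 fell in HCC1937-EV. It was at 139, 122 and 129 CPM at 0 h, at 131, 119 and 119 CPM at 12 h and at 112, 93.5 and 104 CPM at 24 h. The 24 h libraries lay below all 0 h libraries (log2 fold change -0.33 ± 0.0934, interval -0.53 to -0.14, adjusted p = 0.0238, edgeR quasi-likelihood fit, Benjamini-Hochberg method). The call was lost without the first 0 h library (-0.29, adjusted p = 0.112), without the third 0 h library (-0.35, adjusted p = 0.061) and without the second 24 h library (-0.27, adjusted p = 0.126), and with no filter on low counts (-0.32, adjusted p = 0.0662). It held with the GC and length offset (-0.23, adjusted p = 0.024). In HCC1937-OE-BRCA1 EZH2 was at 112, 111 and 95.9 CPM at 0 h and at 108, 109 and 112 CPM at 24 h, with overlap (0.05, interval -0.15 to 0.24).

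Genes of DNA replication were read beside EZH2. Of 16 S-phase genes, 5 fell and 1 rose in HCC1937-EV at 24 h, where 5.12% of all genes fell and 8.62% rose. In HCC1937-OE-BRCA1 5 of the 16 rose and none fell, where 4.71% of all genes rose and 3.55% fell, and EZH2 was not called there. CCNE2, a cyclin of S-phase entry, went from 20.3 to 12.0 CPM in HCC1937-EV (log2 fold change -0.76, adjusted p = 0.00801) and from 31.5 to 56.0 CPM in HCC1937-OE-BRCA1 (0.83, adjusted p = 0.00197). These values are without the GC and length offset described below, and the part of these genes in the EZH2 result was not tested. Over the 18 libraries, with each line centred on its mean, the genes whose log2 CPM was most like that of EZH2 among 10011 genes were PPT1 (Pearson r 0.898), IQCB1 (0.893) and INTS6 (0.893), a description over libraries that share conditions and the GC trend given below.

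The other members gave smaller or more variable shifts. In HCC1937-EV at 24 h TRIM28 was at 848, 859 and 730 CPM, above all 0 h libraries, with a log2 fold change of 0.31 that did not pass (adjusted p = 0.147). MORC2 was at 63.6, 75.6 and 74.3 CPM, also above all 0 h libraries (0.25, adjusted p = 0.0801). TASOR was below them (-0.27, adjusted p = 0.185). In all, 5 of 10 members had no overlap between 24 h and 0 h in HCC1937-EV, beside 39.8% of all genes. In HCC1937-OE-BRCA1 at 24 h TRIM28 was at 948, 968 and 896 CPM (-0.35, adjusted p = 0.128), DNMT3A at 31.4, 33.8 and 34.8 CPM, below its 0 h libraries (-0.25, adjusted p = 0.192), and TASOR at 153, 145 and 156 CPM (0.26, adjusted p = 0.252). There 2 of 10 had no overlap, beside 23.8% of all genes. Without the first 0 h library of HCC1937-OE-BRCA1, in which TRIM28 was lowest and TASOR highest of its group, TRIM28 (-0.53, adjusted p = 0.00613) and TASOR (0.41, adjusted p = 0.0408) were called. SETDB1, DNMT1, DNMT3B, KDM1A and MPHOSPH8 were called in no comparison with untreated cells, and their log2 fold changes at 24 h lay between -0.20 for MPHOSPH8 in HCC1937-EV and 0.12 for MPHOSPH8 in HCC1937-OE-BRCA1.

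**Figure D3:**
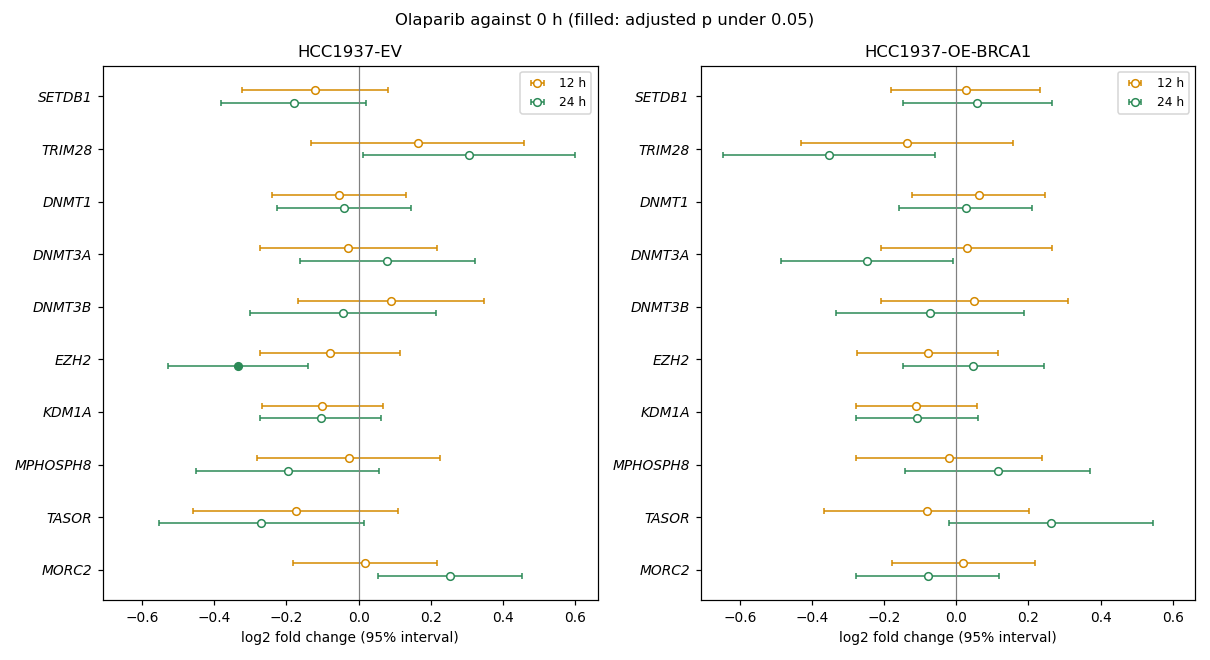
Log2 fold change of each member after 12 h and 24 h of olaparib against 0 h, with 95% intervals, in HCC1937-EV (left) and HCC1937-OE-BRCA1 (right). Of 40 points 1 is filled, EZH2 in HCC1937-EV at 24 h (-0.33), the only one past an adjusted p of 0.05.

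The change with olaparib was then compared between the lines. At 24 h the difference of the changes, HCC1937-OE-BRCA1 minus HCC1937-EV, was called for TRIM28 (-0.66 ± 0.2 on the log2 scale, adjusted p = 0.0258) and for EZH2 (0.38 ± 0.132, adjusted p = 0.0472), 2 of 10 members beside 19.4% of all genes (8.16% higher and 11.2% lower). TRIM28 went from 657 to 812 CPM in HCC1937-EV and from 1197 to 938 CPM in HCC1937-OE-BRCA1. EZH2 went from 130.1 to 103 CPM and from 106 to 109.6 CPM. TASOR had a difference of 0.53 that did not pass (adjusted p = 0.0563), and -0.03 with the GC and length offset (adjusted p = 0.871). It passed by DESeq2's Wald test (adjusted p = 0.0456) and, by edgeR, with no filter on low counts (0.47, adjusted p = 0.047). By edgeR it also passed with at least 10 counts in every library (0.54, adjusted p = 0.046) and with the compared conditions alone (0.53, adjusted p = 0.0199). Its means went from 121 to 100.1 CPM and from 126 to 151 CPM. With the GC and length offset TRIM28 (-0.20, adjusted p = 0.17) and EZH2 (0.17, adjusted p = 0.241) were no longer called, and MORC2 (-0.45, adjusted p = 0.0045) and DNMT3A (-0.34, adjusted p = 0.0467) were, beside 18% of all genes. Without the first 0 h library of HCC1937-OE-BRCA1 TRIM28 (-0.83), EZH2 (0.42), TASOR (0.68) and MORC2 (-0.38) were called. The TRIM28 call held in 5 of 12 fits that left out 1 library and the EZH2 call in 3 of 12. At 12 h none was called (0.518% of all genes called), with 0 of 10 at an unadjusted p under 0.05 and 0 by DESeq2's Wald test.

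A trend with GC content moved with these comparisons. In each library, the deviation of every gene from the mean of its line was correlated with the GC content of its exons. Spearman's rho across genes, which are not independent replicates, lay between -0.59 and -0.23 in the 0 h libraries of HCC1937-EV and between 0.28 and 0.62 in its 24 h libraries. In HCC1937-OE-BRCA1 the 0 h libraries were spread from -0.59, in the first library, to 0.55, and the 24 h libraries lay between -0.45 and -0.29. The members span this range, from TASOR with 37.6% GC and MPHOSPH8 with 43.8% to TRIM28 with 60.9%. Over the 9 libraries of HCC1937-EV, the level of TRIM28 followed the library's rho with Pearson r 0.926 and that of TASOR with -0.912, and over those of HCC1937-OE-BRCA1 with 0.866 and -0.937. For EZH2, with 44.6% GC, r was -0.837 in HCC1937-EV and -0.591 in HCC1937-OE-BRCA1. The weakest were DNMT3B in HCC1937-EV (0.0568) and KDM1A in HCC1937-OE-BRCA1 (0.0216). The third 12 h library of HCC1937-EV had a rho of 0.65, against -0.59 and -0.21 in its replicates, and in it TRIM28 was at 893 CPM and TASOR at 81.8 CPM. These are descriptions over libraries that share 3 conditions. With the offset, the change of TRIM28 in HCC1937-EV at 24 h went from 0.31 to -0.02 and that of TASOR from -0.27 to 0.09, and MORC2 (0.28, adjusted p = 0.0137) was called beside EZH2, 2 of 10 members against 13.7% of all genes. In HCC1937-OE-BRCA1, the offset led to calls of TRIM28 (-0.22, adjusted p = 0.0289), DNMT3A (-0.29, adjusted p = 0.0162) and KDM1A (-0.19, adjusted p = 0.0405) at 24 h, beside 17.5% of all genes, where it also moved the calls over all genes from 864 higher and 651 lower to 1241 and 1976. The offset removes any real change that follows GC content together with a technical one, and the 2 cannot be told apart here.

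**Figure D4:**
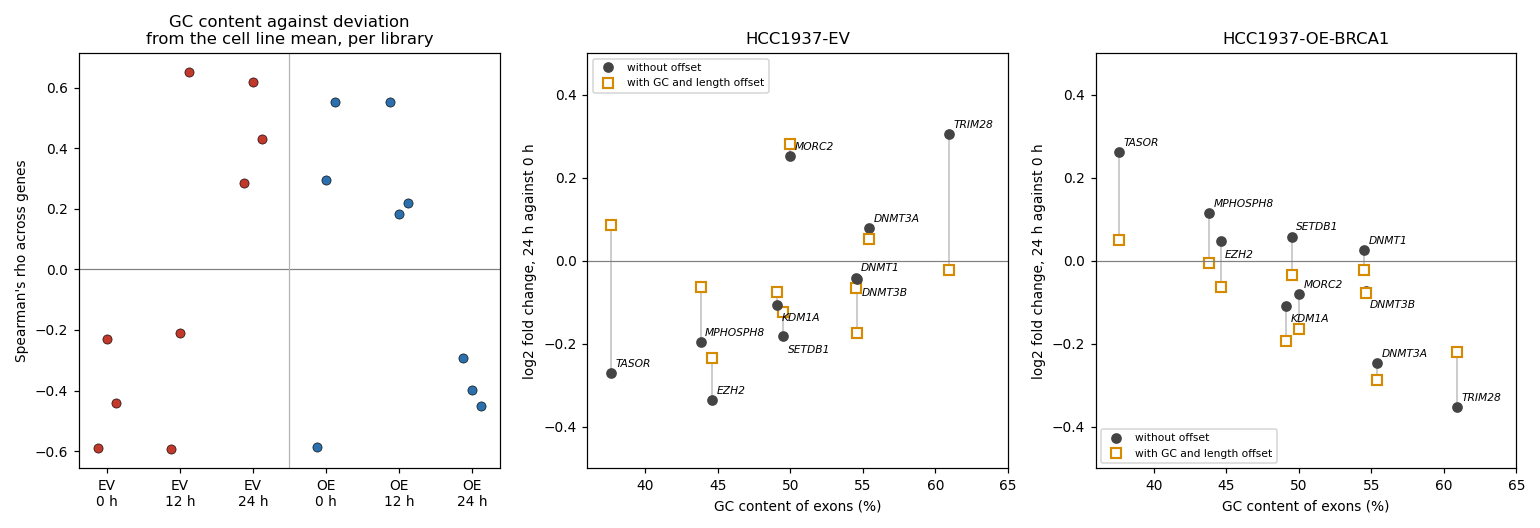
Left, Spearman's rho across genes between exon GC content and the deviation from the mean of the line, 1 point per library. Middle and right, log2 fold change of each member at 24 h against its GC content (%) without (filled circles) and with (open squares) the GC and length offset in HCC1937-EV and HCC1937-OE-BRCA1. TASOR and TRIM28, at 37.6% and 60.9% GC, lie at -0.27 and 0.31 in HCC1937-EV and at 0.26 and -0.35 in HCC1937-OE-BRCA1.

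Partners of the members were read from lists of related genes. Among 11 partners of HUSH and SETDB1, 8 were lower and 1 higher in untreated HCC1937-OE-BRCA1, where 33.3% of all genes were lower and 39.4% higher (median log2 fold change -0.73, against 0.11 over all genes). The 9 of 11 called stand beside 72.7% of all genes. ATF7IP, which holds SETDB1 in the nucleus and protects it from degradation, was the higher one, at 209, 125 and 161 CPM against 55.2, 50.3 and 48.5 CPM (1.68 ± 0.147, adjusted p = 1.44e-09, edgeR quasi-likelihood fit, Benjamini-Hochberg method). Its relative ATF7IP2 (-2.37) and SETDB2 (-1.51) were lower, as was PPHLN1, a core subunit of HUSH beside TASOR and MPHOSPH8 (130 to 82.6 CPM, -0.65, adjusted p = 6.97e-06). In HCC1937-EV at 24 h RESF1 (-0.65), MORC3 (-0.61) and TASOR2 (-0.59), all tied to silencing with SETDB1 or HUSH, fell and none rose. Of all genes 5.12% fell and 8.62% rose there. None of the 11 was called in HCC1937-OE-BRCA1 at 24 h by edgeR, beside 8.26% of all genes, or by DESeq2's Wald test, with 1 at an unadjusted p under 0.05. The difference of the 24 h changes was called for 5 of the 11, all higher in HCC1937-OE-BRCA1, where 8.16% of all genes were higher and 11.2% lower. Values here and in the other lists of related genes are without the GC and length offset. The part of the GC trend in them was not tested.

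Of 8 genes of heterochromatin protein HP1 and other lysine 9 methyltransferases, 2 were higher and 2 lower in untreated HCC1937-OE-BRCA1, beside 39.4% and 33.3% of all genes. CBX5, which codes for HP1 alpha, was at 447, 440.1 and 465 CPM in HCC1937-EV against 307, 214 and 252 CPM (-0.81, adjusted p = 7.11e-06), SUV39H1 was lower (-1.01) and PRDM2 higher (0.88). PRDM2 alone of the 8 was called with olaparib in HCC1937-EV at 24 h (-0.62, adjusted p = 0.0122), where 13.7% of all genes were. In HCC1937-OE-BRCA1 at 24 h edgeR called 0 of the 8, beside 8.26% of all genes, and 3 had an unadjusted p under 0.05. DESeq2's Wald test called 2 there, where it called 1066 of 18335 genes higher and 1071 lower.

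Of 12 tested cofactors and readers of DNA methylation, 8 were lower and 1 higher in untreated HCC1937-OE-BRCA1 (median -0.54), beside 33.3% and 39.4% of all genes. UHRF1, which brings DNMT1 to newly copied DNA, was at 191, 205 and 188 CPM in HCC1937-EV and at 104, 109 and 149 CPM in HCC1937-OE-BRCA1 (-0.69, adjusted p = 1.88e-05), whereas DNMT1 itself was not called. The methyl-CpG readers ZBTB33 (-1.99) and MBD2 (-1.02) were lower and MBD3 (0.79) was higher. In HCC1937-EV at 24 h 3 of the 12 fell and 1 rose, where 5.12% of all genes fell and 8.62% rose. Among them CDCA7 (-0.56), which activates the remodeler HELLS, and UHRF2 (-0.38) fell and MBD3 rose (0.62). In HCC1937-OE-BRCA1 at 24 h MBD2 fell (-0.48, adjusted p = 0.0319), 1 of 12 beside 8.26% of all genes. The difference of the 24 h changes was called for 6 of the 12. Of these, 5 were higher and 1 lower in HCC1937-OE-BRCA1, beside 8.16% and 11.2% of all genes. Of 6 genes of DNA demethylation, 2 were higher and 2 lower in untreated HCC1937-OE-BRCA1, beside 39.4% and 33.3% of all genes. The lower ones were TET1 (-1.10) and the glycosylase TDG (-1.06). GADD45A, a gene induced by DNA damage, rose in HCC1937-EV (23.6 to 40.7 CPM, 0.78, adjusted p = 0.00521) and fell in HCC1937-OE-BRCA1 (38.6 to 25.5 CPM, -0.60, adjusted p = 0.0208), and that difference was called (-1.38, adjusted p = 0.000585). TET2, which oxidizes methylated cytosine, fell in HCC1937-EV (23.1 to 14.5 CPM, -0.67, adjusted p = 0.0343) and was not called in HCC1937-OE-BRCA1 (27.4 to 32.8 CPM, 0.26, adjusted p = 0.464), with a difference of 0.92 between the lines (adjusted p = 0.0256).

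Of 10 PRC2 partners in the table, 5 were lower and 3 higher in untreated HCC1937-OE-BRCA1, and these 8 of 10 stand beside 72.7% of all genes called, with RBBP7 (-1.29), EZH1 (-1.05) and JARID2 (-0.65) the largest. SUZ12, which PRC2 needs for its activity beside EZH2, was lower (-0.56, adjusted p = 0.00373), and EED, the other core subunit, was not called (0.17, adjusted p = 0.157). When EZH2 fell in HCC1937-EV at 24 h, edgeR called none of the 10, beside 13.7% of all genes. DESeq2's Wald test called SUZ12, the 1 gene of the 10 at an unadjusted p under 0.05. SUZ12 then had -0.46 (adjusted p = 0.0622) and EED 0.18 (adjusted p = 0.265). In HCC1937-OE-BRCA1 PHF19 fell (-0.57, adjusted p = 0.000943) and RBBP4 rose (0.27, adjusted p = 0.0279). Of 12 partners of KDM1A in the CoREST complex, 4 were higher and 4 lower in untreated HCC1937-OE-BRCA1, beside 39.4% and 33.3% of all genes. Among them HDAC1 was higher (1.22) and PHF21A lower (-1.16). In HCC1937-EV at 24 h HMG20B (0.49) and HDAC1 (0.41) rose and ZMYM2 fell (-0.42), and in HCC1937-OE-BRCA1 RCOR2 fell (-0.66).

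**Figure D5:**
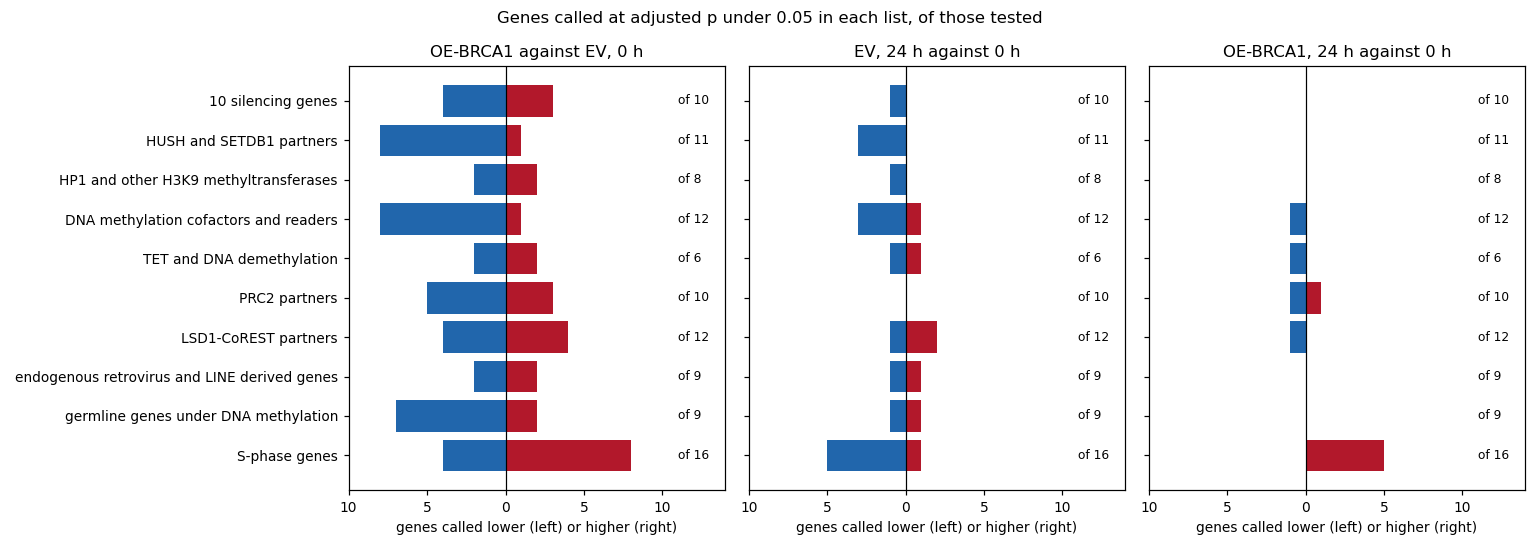
Number of genes called higher (red, right) and lower (blue, left) in the 10 members and in each list of related genes, of the number tested given at the right, for the untreated lines and for 24 h against 0 h in each line. In the first panel 8 of 11 HUSH and SETDB1 partners and 8 of 12 DNA methylation cofactors point to the lower side, where 33.3% of all genes were lower. In that panel 8 of the 9 calls of germline genes follow from the filter on low counts.

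Genes derived from retroelements were read where the counts hold them. Whether this machinery silences them in these cells was not tested. Of 18 listed genes derived from endogenous retroviruses or LINEs, 15 were in the table and 9 were tested. ERVMER34-1, a retroviral envelope gene, had no count in untreated HCC1937-EV and 169 counts in untreated HCC1937-OE-BRCA1, a level at least 56.8-fold higher when the first is set to 3 counts over its group. PEG10, a gene of retroviral origin, was at 540.5 against 165 CPM (-1.71, adjusted p = 2.92e-11) and ERV3-1 at 3.26 against 6.21 CPM (0.93, adjusted p = 0.0022). With olaparib in HCC1937-EV at 24 h, ERVK3-1 fell (-0.54, adjusted p = 0.0312) and HHLA3 rose (0.52, adjusted p = 0.0406), 2 of 9 beside 13.7% of all genes. In HCC1937-OE-BRCA1 0 of 9 were called by edgeR, beside 8.26% of all genes, or by DESeq2's Wald test, with 1 at an unadjusted p under 0.05. The table counts genes, so repeats outside them were not analysed here.

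Of 27 listed germline genes that DNA methylation keeps silent in somatic tissue, 19 were in the table and 9 passed the filter on low counts. Of these, 7 had no count in any HCC1937-OE-BRCA1 library and passed through HCC1937-EV alone, and STK31 passed through HCC1937-OE-BRCA1 alone, so that their calls between the lines follow from the filter and are given as levels. MAGEA3 lay between 185 and 270 CPM and CTAG2 between 163 and 372 CPM over the 9 HCC1937-EV libraries, and both had no count in the 9 HCC1937-OE-BRCA1 libraries. At 0 h they were at least 3150-fold and 2750-fold lower there, with 3 counts over the group as the floor. MAGEA6, MAGEA12, MAGEA1, PRAME and MAGEB2 also had no count in HCC1937-OE-BRCA1. The MAGEA genes are alike in sequence to differing degrees, and how reads were divided among them is uncertain. HORMAD1 was at 9.26 CPM in untreated HCC1937-EV against 32.7 CPM in untreated HCC1937-OE-BRCA1. With olaparib CTAG2 rose in HCC1937-EV at 24 h, from 171 ± 7.24 to 332 ± 42.8 CPM (0.95, adjusted p = 0.00551), and HORMAD1 fell (-0.78, adjusted p = 0.0436). In HCC1937-OE-BRCA1 the 7 genes without a count, CTAG2 among them, could not be called. There STK31 and HORMAD1 were not called by either tool and had no unadjusted p under 0.05.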

How the data were processed

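Counts of reads per gene were deposited by the authors as whole numbers without normalization, in 1 joint table and 18 single-library tables that were checked to hold equal values. Per the labels, RNA was extracted with TRIzol, libraries were made with the NEBNext Ultra II kit, and the submitters' processing notes name HISAT2, featureCounts, DESeq2 and GRCh38. Versions and strand setting are not given in the sources used here. The table lists 35044 Ensembl identifiers, of which 34966 (99.78%) matched a symbol. Positions, GC content and exon lengths are from GENCODE v29 (33888 identifiers, 96.7%).

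Total counts of 15081973 to 17571922 per library (median 16077299) were scaled with TMM in edgeR 4.0.16 (R 4.3.3). Low counts were removed with filterByExpr by condition (18335 genes kept), and edgeR's quasi-likelihood test was fitted with 1 mean per condition over all 18 libraries. A gene was called when its p, adjusted by the Benjamini-Hochberg method over all 18335 genes, was under 0.05. SE is the log2 fold change divided by the root of F, and intervals are 95%. The biological coefficient of variation was 12.9%. Replicate pairs differed by 3.25 to 42.3 times counting noise (chi-square per degree of freedom), so each library counted once. Limits for a count of 0 (3 counts) and folds against it cover counting error alone.

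Alternatives were DESeq2 size factors, DESeq2 1.42.0 (Wald test), no filter, at least 10 counts in every library, the compared conditions alone, a replicate block, an offset from a smooth trend on GC content and exon length (mgcv 1.9.3), block with offset, and each library left out. For the offset, each line was centred on its own mean, so it leaves a GC bias between the lines in place. The test was checked on simulated counts of 15350 genes, with 100 genes changed at each fold. The members, lists of related genes and alternatives were chosen with earlier results of these data known. The text names all members, up to 3 called genes with the largest change per list and comparison, and UHRF1, SUZ12, EED, PPHLN1, ATF7IP, CBX5 and BRCA1. The values of 1 gene under this rule are not reported here. It also names the 3 genes with a mean of at least 10 CPM most correlated with EZH2. CERS2, CCDC66, STK31, MAGEA12, MAGEA1, PRAME and MAGEB2 were named after their values were seen.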

Additional observations from a re-analysis of the deposited data

Results flagged for a closer look

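The change of TRIM28 with 24 h of olaparib differed between the lines by -0.66 on the log2 scale (HCC1937-OE-BRCA1 minus HCC1937-EV, adjusted p = 0.0258, edgeR quasi-likelihood fit, Benjamini-Hochberg method), with means of 657 and 812 CPM in HCC1937-EV and 1197 and 938 CPM in HCC1937-OE-BRCA1. The change of EZH2 differed by 0.38 (adjusted p = 0.0472 by the same test), with means of 130.1 and 103 CPM and of 106 and 109.6 CPM. Both differences were tested directly. With the GC and length offset they were -0.20 (adjusted p = 0.17) and 0.17 (adjusted p = 0.241).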

How the results depend on the processing

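Of 1380 values of the members' log2 fold changes under alternatives, 26 lost and 37 gained a call, and no called value reversed. Uncalled values whose sign changed were counted as unchanged. In HCC1937-EV at 24 h, 1 member was called in the analysis as reported, 4 with the compared conditions alone, 2 with the GC and length offset, 2 with that offset and a replicate block, and 0 to 1 when a library was left out (0 without the first or the third 0 h library or the second 24 h library). In HCC1937-OE-BRCA1 at 24 h, 0 became 1 with no filter on low counts, 3 with the offset, 3 with offset and block, and 0 to 2 when a library was left out, the 2 being TRIM28 and TASOR without the first 0 h library. Between the lines, 7 became 8 with the offset at 0 h and at 12 h, adding TASOR, DESeq2's Wald test called 8 at 12 h, and at 24 h 4 became 7 with the offset and 7 with offset and block. For the difference of the 24 h changes, 2 became 1 with offset and block and 0 to 4 when a library was left out, 0 without the first or the third 0 h library or the second 24 h library of HCC1937-EV or without the second or the third 0 h library or the third 24 h library of HCC1937-OE-BRCA1, 1 without the first or the third 24 h library of HCC1937-EV or the first or the second 24 h library of HCC1937-OE-BRCA1, and 4 without the first 0 h library of HCC1937-OE-BRCA1. The offset alone also gave 2, of other genes. DESeq2's Wald test gave 3, adding TASOR, and at least 10 counts in every library also added TASOR. With no filter on low counts or the compared conditions alone, TASOR was called and EZH2 was not. The cause was not tested. Same-numbered replicates deviated together with correlations between -0.36 and 0.31, so the numbers share no more than a number, and the replicate block alone changed no count of calls (1 in HCC1937-EV and 0 in HCC1937-OE-BRCA1 at 24 h, 7, 7 and 4 between the lines, 2 for the difference). In the simulated counts, with 3 libraries a group, 58% of randomly drawn genes changed 1.5-fold were recovered, so smaller changes could be missed. Some smaller ones were called in the data, as EZH2 at 1.26-fold in HCC1937-EV at 24 h.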
